A study of Mus musculus with 16 samples.

Results

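The mitochondrial ribosomal proteins are the nuclear-encoded proteins that, with RNA made from mitochondrial DNA, build the ribosome of the mitochondrion. Their genes were taken from the RNA-Seq count table as every row whose Ensembl identifier belonged to a protein-coding mouse gene with a symbol of Mrpl or Mrps followed by a digit, without use of any measured value. This gave 78 genes among the 35328 in the table: 51 for proteins of the large subunit, 26 for proteins of the small subunit and Mrps36, which carries such a name but belongs to another enzyme. Of these, 77 passed the filter on low counts, as did 17830 genes in all. The exception was Mrpl53, a large-subunit protein gene with 0 to 5 reads per library, whose exons are shared with Gm42688 on its own strand and with Ccdc142os on the other.

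The RNA came from the dorsal hippocampus of male C57BL/6J mice, 1 library per mouse and 4 mice in each of 4 groups. Home cage water mice drank water and rested, and home cage caffeine mice drank 0.3 g/L caffeine for 2 weeks from 8 to 9 weeks of age. Learning water and learning caffeine mice received the same drinks and were habituated to the pool for 2 days. They were then trained for 3 days in the Morris water maze, a spatial memory task in which a swimming mouse finds a hidden platform. Their tissue was sampled 1 hour after the last trial. No group swam without training, so that learning cannot be told apart from swimming and handling. The comparisons ask what regular caffeine does to hippocampal RNA at rest and after training, and whether it alters the response to training.

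The mitochondrial ribosome makes only the few proteins encoded by mitochondrial DNA, all of them core subunits of the respiratory chain and the ATP synthase. Its protein subunits are translated in the cytosol and imported, and its RNA is transcribed inside the organelle, so both genomes are needed to build it. Compared with its bacterial relative it holds less RNA and more protein, including many proteins found only in mitochondria. Neurons depend on the respiratory chain for most of their ATP, and inherited defects in several of these ribosomal proteins cause oxidative phosphorylation disease of the brain and heart.

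The libraries held 23078094 to 49949281 counted reads, of which the 78 genes took 0.20% to 0.239%. Fos, Arc and Egr2, genes induced by neuronal activity, were all called higher after learning under both treatments. All 8 markers of hippocampal neurons were present in every library, and so were markers of oligodendrocytes, astrocytes, endothelium and the choroid plexus, so that fewer cells of a type and less RNA per cell cannot be told apart. Home cage caffeine mouse 17 stood apart from the other libraries: its reads leaned furthest to short transcripts, with a slope of -0.121 in log2 deviation per doubling of transcript length over all genes where the other 15 libraries had -0.058 to 0.081, and it had the largest share of reads from mitochondrial DNA, 4.49%. For all 77 genes, counts of calls and most medians that rest on it are given with and without it. Values by subunit, origin or transcript length, counts of unadjusted p values, and other gene lists are given only with it. Learning water mouse 24 stood apart in its oligodendrocyte markers, as given below.

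In resting and trained hippocampus most genes for mitochondrial ribosomal proteins were expressed at moderate levels that differed from gene to gene. Levels are given as CPM, reads scaled to a common library size, per kilobase of transcript, so that genes can be compared with each other. Over the 16 libraries the median of the 77 genes was 17.8 CPM per kilobase, against 5.24 for all genes tested and 86.3 for the 84 nuclear-encoded subunits of oxidative phosphorylation. The 83 cytosolic ribosomal protein genes tested stood at 15.7 on this scale, but only uniquely aligned reads were counted, and those genes have many near-identical pseudogenes. Proteins with a bacterial counterpart had medians of 20.6 in the large and 18.8 in the small subunit. Proteins found only in mitochondria had medians of 19.0 in the large and 11.2 in the small subunit.

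**Figure D1:**
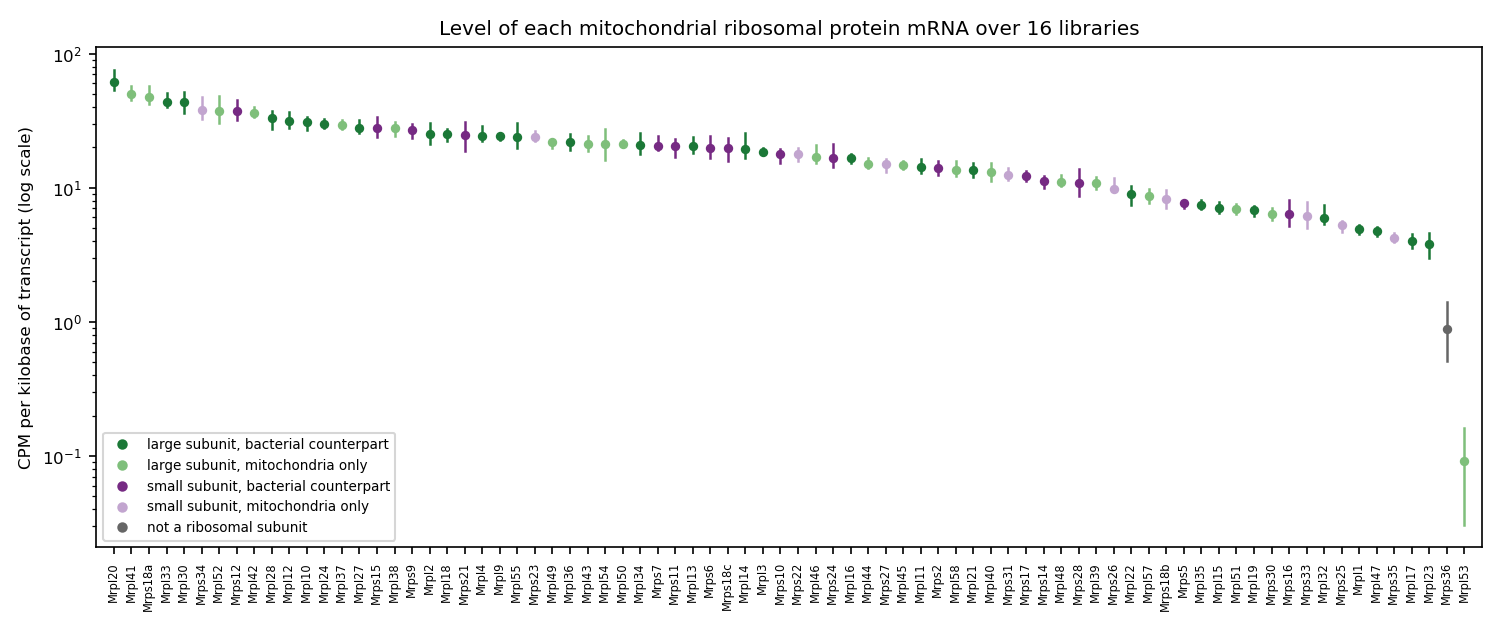
Each point is the mean level of 1 gene over the 16 libraries in CPM per kilobase of transcript on a log axis, and each line runs from its lowest value above 0 to its highest library. Genes are ordered by level and coloured by subunit and origin; all but Mrps36 and Mrpl53 lie between 3.79 (Mrpl23) and 60.9 (Mrpl20).

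The highest level was that of Mrpl20, a large-subunit protein with a bacterial counterpart, at 60.9 CPM per kilobase. Mrpl41, a protein found only in the mitochondrial large subunit, followed at 50.1 and Mrps18a, a protein of the S18 family that sits in the large subunit despite its name, at 47.5. The ranges of these neighbours over the libraries overlapped. Before division by length they were 40.9 to 57.9 CPM for Mrpl20, 34.9 to 44.5 CPM for Mrpl41 and 37.3 to 50.8 CPM for Mrps18a. Within every library Mrpl20 was above Mrpl41, also per kilobase, since its transcript is the shorter (764 against 776 bases). Mrps18c and Mrps18b, the paralogs of Mrps18a in the small subunit, stood at 19.7 and 8.22 CPM per kilobase. Among the proteins of the L7/L12 stalk, which recruits translation factors, Mrpl12 stood at 31.7, Mrpl10 at 30.8 and Mrpl11 at 14.4. Mrpl44, a protein of the RNase III family, and Mrpl45, which lies at the exit of the peptide tunnel by the inner membrane, had nearly equal levels of 15.1 and 14.8.

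At the low end stood Mrpl23 at 3.79 CPM per kilobase, whose protein flanks the tunnel exit, and Mrps36 at 0.880, whose product joins the alpha-ketoglutarate dehydrogenase complex of the citrate cycle. Mrps36 had 9 to 34 reads per library. Both have processed pseudogenes in the table, Mrpl23-ps1 with 1 to 7 reads and Mrps36-ps1 and Mrps36-ps2 with at most 2, and reads that fit gene and copy equally well were dropped, so that their levels are uncertain. Within groups Mrps5, a small-subunit protein, varied least between mice, with a coefficient of variation of 2.57%. Exons of 31 of the 78 genes are shared with another gene of the table, mostly on the opposite strand. The strand setting of the counting is not given in the sources used here.

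Caffeine at rest moved no gene for a mitochondrial ribosomal protein past the threshold. In the home cage 0 of 77 were called at an adjusted p under 0.1 by edgeR's quasi-likelihood test, and 0% of all genes tested were called higher and 0% lower. DESeq2 also called 0, and 2 of the 77 had an unadjusted p under 0.05. The median log2 difference of caffeine against water was 0.027 over the 77 and -0.003 over all genes. It was 0.017 for the large and 0.049 for the small subunit, and over the 77 it ranged from 0.0081 without mouse 17 to 0.051 without home cage caffeine mouse 14.

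The 2 genes with the smallest p lay in opposite directions. Mrps18a had 41.3, 37.3, 39.8 and 44.1 CPM in the home cage water mice and 47.8, 43.0, 39.5 and 50.8 CPM in the home cage caffeine mice. The groups overlapped, and the log2 difference of 0.16 (95% interval 0.01 to 0.31) had an adjusted p of 0.997 by edgeR. Without mouse 17 the log2 difference was 0.099. Mrpl19, a large-subunit protein with a bacterial counterpart, had 36.2, 34.1, 33.4 and 35.9 CPM under water and 32.7, 32.4, 33.5 and 30.5 CPM under caffeine. The highest caffeine library lay just above the lowest water library here, and the log2 difference was -0.11 (95% interval -0.22 to -0.0005) with an adjusted p of 0.997 by edgeR. Without mouse 17 the log2 difference was -0.083. Mrpl19 shares 1962 exon bases with Gcfc2 on the other strand.

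Caffeine against water after learning likewise gave no call. edgeR and DESeq2 each called 0 of 77, none had an unadjusted p under 0.05, and 0% of all genes were called higher and 0% lower. The median log2 difference was 0.023 over the 77, against -0.004 over all genes, and ranged from 0.0099 without learning water mouse 33 to 0.038 without learning caffeine mouse 30. Mrpl40, a protein of the large subunit found only in mitochondria, had 15.6, 15.2, 14.3 and 15.2 CPM in learning water mice and 16.6, 17.5, 16.4 and 16.2 CPM in learning caffeine mice. All 4 caffeine libraries were above the water libraries, with a log2 difference of 0.14 (95% interval -0.0008 to 0.29; adjusted p 0.999 by edgeR). Mrps27, which binds RNA in the small subunit, had 28.3, 27.5, 25 and 24.2 CPM under water and 28.9, 30.0, 28.3 and 26.7 CPM under caffeine, which overlapped, with a log2 difference of 0.12 (95% interval -0.0047 to 0.24).

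Averaged over home cage and learning, caffeine gave 0 calls among the 77 by edgeR and by DESeq2, with 1 unadjusted p under 0.05, that of Mrps25. Of all genes, 0% were called higher and 0% lower. The median log2 difference was 0.023, with 57 of 77 above 0, and 0.0087 without mouse 17. For a gene of median precision among the 77 the standard error was 0.048 in this average and 0.069 in the home cage comparison, which sets the size of change these 16 mice could show.

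Learning under water gave no call among the 77 genes either, while most leaned lower. edgeR and DESeq2 called 0, where 0.639% of all genes were called higher and 0.331% lower. By edgeR 7 of the 77 had an unadjusted p under 0.05, 6 of them lower. The share of all genes is not given for this count, so that no excess is read from it. The median log2 change from home cage to learning was -0.053 over the 77 and -0.005 over all genes, and 62 of 77 were below 0. Mrps36 had the smallest p, with 0.992, 0.478, 0.965 and 0.913 CPM at rest and 0.549, 0.449, 0.519 and 0.358 CPM after learning. Home cage mouse 8 lay within the learning range, and the log2 change was -0.81 ± 0.25 (SE, n = 4 and 4; adjusted p 0.187 by edgeR). Mrpl40 had 18.7, 15.6, 16.5 and 19.5 CPM at rest and the 14.3 to 15.6 CPM given above after learning, without overlap, with a log2 change of -0.22 ± 0.07 (adjusted p 0.191 by edgeR). Without mouse 8, both were called, Mrps36 with an adjusted p of 0.0711 and Mrpl40 with 0.0920 by edgeR.

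Under caffeine 2 of the 77 genes, Mrpl2 and Mrps28, were called lower after learning, and none was called higher. Of all genes, 3.16% were called higher and 2.13% lower, so that the share of the 77 called lower, 2.60%, was close to that of all genes. DESeq2 called 4, adding Mrpl54 and Mrpl58, all lower. Unadjusted p values under 0.05 were found for 18 of the 77, 16 of them lower, which is 23.4% against 18.8% of all genes. The median log2 change was -0.082 against -0.012 over all genes, with 59 of 77 below 0. It was -0.131 for the 16 small-subunit proteins with a bacterial counterpart and -0.006 for the 10 found only in mitochondria. The latter have longer transcripts, with a median of 1423.5 against 1037 bases. The large subunit did not show this split in the median log2 deviation of a library's genes, averaged by group. From rest to learning it went from 0.041 to -0.028 with a bacterial counterpart and from 0.033 to -0.030 without. Corrected values, or values without mouse 17, are not given for these subsets.

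Mrpl2, on the plus strand at chr17:46646229-46650139 (mm10), encodes the counterpart of bacterial L2, a protein close to the peptidyl transferase center. It had 28.2, 28.0, 25.8 and 31.2 CPM in the home cage caffeine mice and 24.1, 25.5, 23.2 and 22.8 CPM in the learning caffeine mice. All learning libraries were below all home cage libraries, and Mrpl2 fell by 0.24 on the log2 scale (SE 0.07, adjusted p 0.0834 by edgeR). Mrps28, on the minus strand at chr3:8802146-8923918, encodes a small-subunit protein related to bacterial S1. It had 9.38, 10.7, 8.29 and 10.3 CPM at rest and 6.74, 8.42, 7.10 and 7.53 CPM after learning. The highest learning library lay just above the lowest home cage library, and Mrps28 fell by 0.37 (SE 0.11, adjusted p 0.0836 by edgeR). Neither was called without mouse 17, where the count of calls was 0 and the median log2 change -0.044, nor after the correction for transcript length and GC content described below.

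Whether the response to learning differed between the treatments was tested as the difference of both changes. No gene was called by edgeR or by DESeq2, 0 of 77 had an unadjusted p under 0.05, and 0% of all genes were called higher and 0% lower. The median difference, caffeine minus water, was -0.011 on the log2 scale, against 0.002 over all genes, and its sign was not stable: it lay between -0.052 without home cage water mouse 6 and 0.0089 without home cage water mouse 8, and was 0.0070 with the length and GC correction. For Mrps36 it was 0.67 ± 0.35 and for Mrpl46, a large-subunit protein found only in mitochondria, -0.21 ± 0.11 (SE; adjusted p 1 for each by edgeR). Mrpl46 had 19.2, 17.3, 17.8 and 20.3 CPM in home cage water, 22.2, 17.9, 18.9 and 23.4 CPM in home cage caffeine, 18.7, 18.6, 19.0 and 19.5 CPM in learning water, and 18.4, 18.5, 18.5 and 17.4 CPM in learning caffeine mice. Its home cage caffeine libraries were thus the most scattered, and without mouse 17 the difference for Mrpl46 was -0.14. Learning changes of 53 genes were below 0 under both treatments, those of 9 above 0 under both, and those of 15 differed in sign. The changes share no libraries, but each was measured in 4 against 4.

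**Figure D2:**
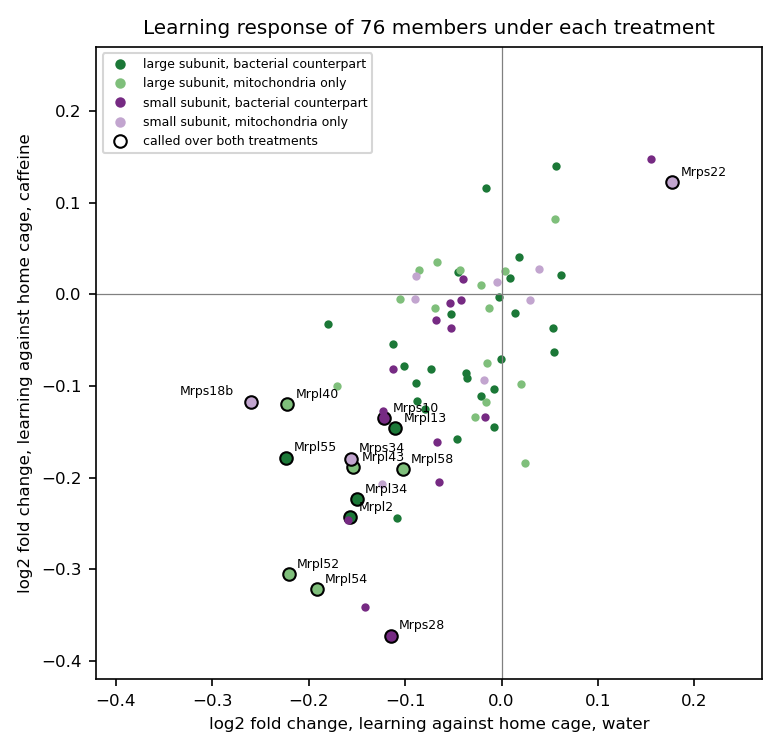
Each point is 1 gene, with its log2 change from home cage to learning in water mice (x axis) and in caffeine mice (y axis), coloured by subunit and origin; ringed points were called over both treatments. Most points lie in the lower left and Mrps22 in the upper right; Mrps36, at -0.81 and -0.14, is outside the axes and not drawn.

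Taken over both treatments, with 8 mice against 8, learning was accompanied by 14 calls among the 77 genes, 13 lower and 1 higher. Of all genes, 6.71% were called lower and 7.81% higher, against 16.9% and 1.30% of the 77. DESeq2 called 15, which included Mrps16. The median log2 change was -0.064 over the 77 and -0.013 over all genes, and 64 of 77 were below 0. The changes were small: all 13 lower genes changed by between -0.26 and -0.13. Leaving out 1 library at a time gave 4 calls (without home cage water mouse 6) to 18 (without home cage water mouse 8), and 6 without mouse 17, with a median of -0.044.

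The genes called lower came from both subunits and from both origins. Of the large subunit, 4 of 30 with a bacterial counterpart were called lower (Mrpl2, Mrpl13, Mrpl34 and Mrpl55) and 5 of 20 found only in mitochondria (Mrpl40, Mrpl43, Mrpl52, Mrpl54 and Mrpl58). Of the small subunit, 2 of 16 with a bacterial counterpart (Mrps10 and Mrps28) and 2 of 10 without (Mrps18b and Mrps34) were called lower, and Mrps22 of the latter was called higher. None of Mrpl12, Mrpl10 and Mrpl11 of the stalk was called, with log2 changes of -0.10, -0.09 and -0.08. Mrps18a and Mrps30, which also sits in the large subunit by structure, had -0.07 and -0.06, and Mrpl44 and Mrpl45 -0.04 and -0.01. Mrps18c had -0.13 (adjusted p 0.209 by edgeR), beside the called -0.19 of Mrps18b. With the length and GC correction Mrps18a had 0.064, Mrpl44 0.025 and Mrps18c 0.0084, so that their sign depended on it. Mrps36 had the largest value, -0.47 ± 0.18, with an adjusted p of 0.104 by edgeR, just short of the call.

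**Figure D3:**
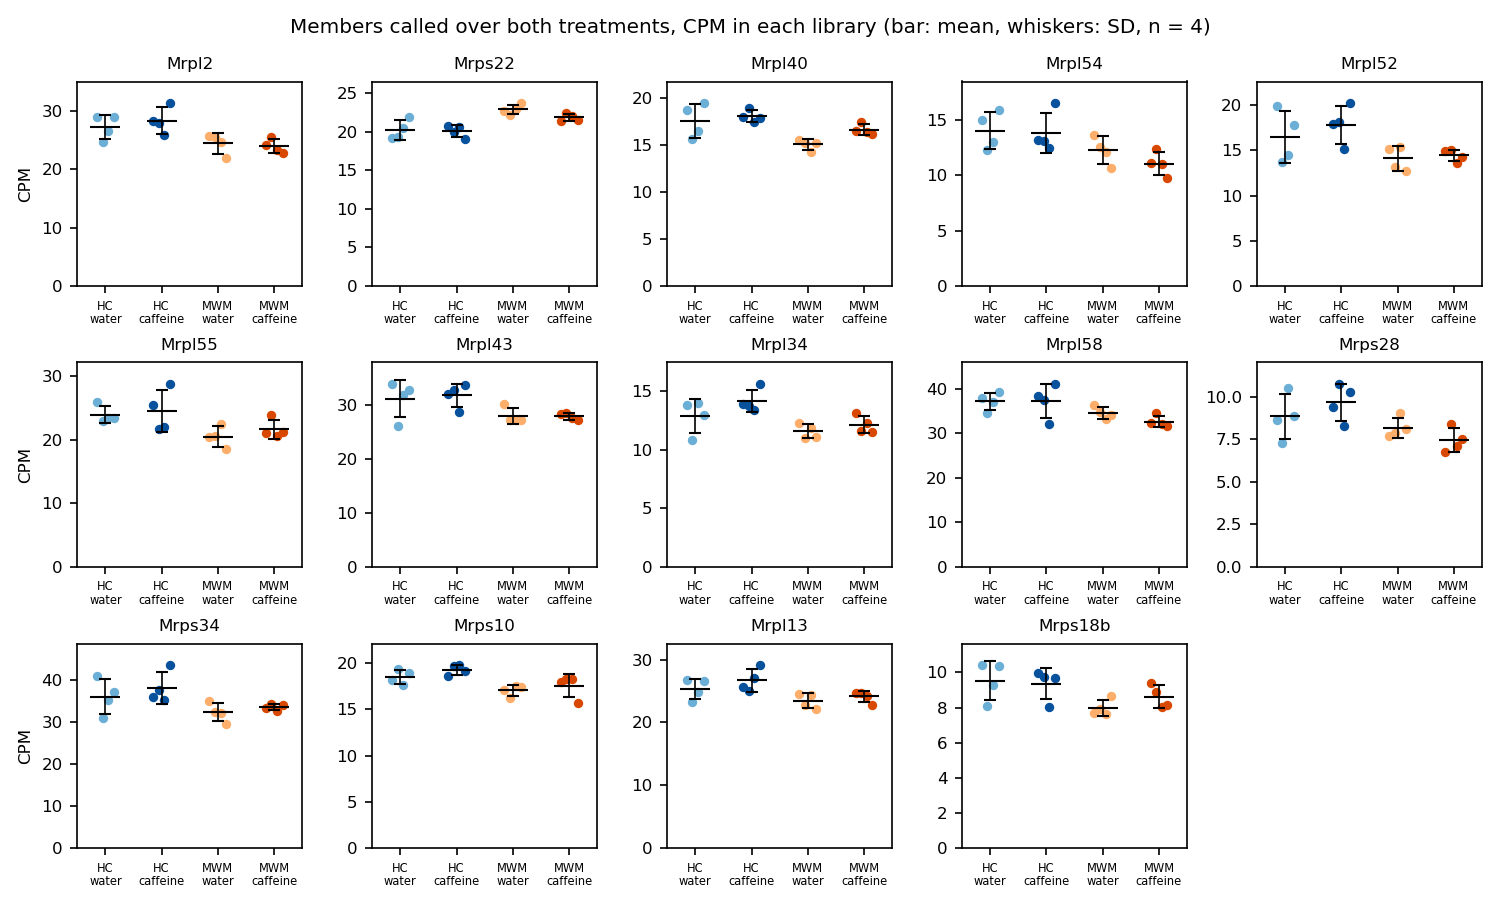
CPM in each of the 16 libraries for the 14 genes called over both treatments, in order of p; the bar is the group mean, the whiskers the SD (n = 4), and the y axes start at 0. HC is home cage and MWM the Morris water maze (learning). Mrps22 is the 1 gene whose learning groups lie higher, and the the home cage libraries spread over a wider range than the learning libraries in all panels but Mrps10.

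Mrpl2 fell by 0.20 over both treatments (SE 0.05, adjusted p 0.0256 by edgeR). Its home cage water libraries had 28.9, 24.6, 26.5 and 28.9 CPM and its learning water libraries 25.6, 25.4, 24.7 and 21.9 CPM, so that these overlapped where those under caffeine did not. Mrpl54, a large-subunit protein found only in mitochondria, had 15, 12.3, 13 and 15.9 CPM in home cage water, 13.2, 13.1, 12.5 and 16.5 CPM in home cage caffeine, 13.7, 12.6, 12.1 and 10.7 CPM in learning water, and 11.1, 12.4, 11 and 9.77 CPM in learning caffeine mice. The lowest home cage libraries lay within the learning range, and Mrpl54 fell by 0.26 (SE 0.08, adjusted p 0.0477 by edgeR). It was not called without home cage water mouse 20, with an adjusted p of 0.107 by edgeR.

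Mrpl52, a large-subunit protein found only in mitochondria and the shortest transcript of the 78 at 418 bases, had 19.9, 13.7, 14.5 and 17.8 CPM in home cage water, 17.9, 18.2, 15.1 and 20.2 CPM in home cage caffeine, 15.2, 13.1, 15.4 and 12.8 CPM in learning water, and 14.9, 15, 13.6 and 14.3 CPM in learning caffeine mice. Under caffeine the groups were apart, under water they overlapped, and Mrpl52 fell by 0.26 over both (SE 0.08, adjusted p 0.0485 by edgeR). It was not called without home cage water mouse 6, with an adjusted p of 0.109 by edgeR. Mrpl40, whose gene lies in the segment deleted in human DiGeorge syndrome, had 18.0, 19.0, 17.5 and 17.9 CPM in home cage caffeine mice against its 16.2 to 17.5 CPM in learning caffeine mice, so that these groups only just stood apart. It fell by 0.17 over both treatments (SE 0.05, adjusted p 0.0404 by edgeR) and was called with each of the 16 libraries left out in turn, as was Mrpl2.

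Mrpl58 has a known activity of its own as a peptidyl-tRNA hydrolase, which frees stalled chains from the ribosome. It had 38, 34.5, 37.1 and 39.2 CPM in home cage water, 38.4, 37.6, 32.1 and 41.0 CPM in home cage caffeine, 36.4, 34.9, 33.2 and 34.0 CPM in learning water, and 32.3, 34.5, 32.2 and 31.6 CPM in learning caffeine mice. Home cage caffeine mouse 14 and home cage water mouse 8 lay within the learning range, and Mrpl58 fell by 0.15 (SE 0.05, adjusted p 0.0646 by edgeR). The call held in 5 of the 16 fits with 1 library left out. The other 8 lower genes changed by -0.24 (Mrps28), -0.20 (Mrpl55), -0.19 (Mrpl34 and Mrps18b), -0.17 (Mrpl43 and Mrps34) and -0.13 (Mrps10 and Mrpl13), with adjusted p of 0.0519 to 0.0950 by edgeR. With 1 library left out, the call held in 13 of 16 fits for Mrpl43, 10 for Mrpl55, 9 for Mrpl34, 6 each for Mrps28 and Mrps34, and 1 for Mrps10. Mrpl13 and Mrps18b were not followed singly in those fits. Of the 8, Mrpl13, Mrpl43, Mrps18b and Mrps34 share exon bases with a gene on the other strand (Mtbp, Twnk, Gm16279 and Mapk8ip3). Mrps34 also shares exon bases with Nme3 on its own strand.

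Mrps22 was the gene called higher. It lies on the minus strand at chr9:98588730-98601660 and encodes a small-subunit protein found only in mitochondria, in which human mutations cause a severe oxidative phosphorylation deficiency. It had 19.2, 19.3, 20.4 and 21.9 CPM in home cage water, 20.8, 19.9, 20.6 and 19.1 CPM in home cage caffeine, 22.7, 22.1, 23.0 and 23.6 CPM in learning water, and 21.4, 22.4, 22.1 and 21.5 CPM in learning caffeine mice. Under each treatment all learning libraries were above all home cage libraries. The log2 change was 0.18 ± 0.06 under water and 0.12 ± 0.06 under caffeine, neither past the threshold (adjusted p 0.195 and 0.245 by edgeR), and over both treatments Mrps22 rose by 0.15 ± 0.04 (adjusted p 0.0286 by edgeR). It was called with each of the 16 libraries left out and shares no exon with another gene.

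The sequence before the RefSeq start of 4 of these genes is shown because they were called with each library left out in turn, Mrps22 upward and Mrpl2 and Mrpl40 downward, or had the largest fall, Mrpl52. With the length and GC correction Mrps22 alone of the 4 was called. Each line gives the 100 bases before the RefSeq start, on the gene's own strand from 5′ to 3′, with capitals at the letters CCGGAAG or their reverse complement, the core read by ETS factors such as the nuclear respiratory factor GABP. The windows are chr9:98601680-98601779 (Mrps22, minus strand), chr14:54426809-54426908 (Mrpl52, plus), chr17:46646121-46646220 (Mrpl2, plus) and chr16:18876638-18876737 (Mrpl40, minus) of GRCm38.p6. In GENCODE M21 Mrpl40 spans chr16:18872018-18876862, so that its window lies inside the annotated gene and not before the GENCODE start.
Mrps22: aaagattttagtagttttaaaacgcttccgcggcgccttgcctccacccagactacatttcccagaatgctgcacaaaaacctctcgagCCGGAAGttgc
Mrpl52: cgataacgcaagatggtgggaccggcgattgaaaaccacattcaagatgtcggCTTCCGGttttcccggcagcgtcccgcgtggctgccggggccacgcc
Mrpl2: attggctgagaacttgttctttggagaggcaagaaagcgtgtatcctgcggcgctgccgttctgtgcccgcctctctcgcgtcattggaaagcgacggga
Mrpl40: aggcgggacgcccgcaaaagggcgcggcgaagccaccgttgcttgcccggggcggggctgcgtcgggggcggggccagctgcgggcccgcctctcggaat

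The ETS letters began 11 bases before the start of Mrps22 and, on the other strand, 47 bases before that of Mrpl52, and did not occur in the 100 bases shown of Mrpl2 and Mrpl40. RefSeq windows of 300 bases, 250 before and 50 after the start, were matched for 69 of the 78 genes. A gene can have several windows, as Mrpl2 with 3, of which the first is shown above. Genes were counted when any of their windows held the letters, so that shares of genes and of all windows are unlike measures. The ETS letters, searched on both strands, stood in 26 of the 69, or 37.7%, against 17.5% of 11582 other protein-coding genes tested and 8.86% of all 32851 windows. AAGATGGC, the letters of YY1, stood in 12 (17.4% against 4.58% of the other genes, and 2.75% of all windows), and GCATGCGC, those of nuclear respiratory factor 1, in 8 (11.6% against 5.45%, and 2.71% of all windows). GGGCGG of the Sp1 family stood in 34 (49.3% against 66.6%, and 35.7% of all windows), CCAAT of NF-Y in 27 (39.1% against 42.5%, and 37.4%), CACGTG of the E-box in 5 (7.25% against 11.1%, and 7.15%) and TGACGTCA of the CREB family in 2 (2.90% against 3.38%, and 1.79%). These letters are a description of the windows and not of bound sites.

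The lean of the 77 genes in a library went along with the lean of that library toward short or long transcripts. The median of the 77 genes' log2 deviations from their own means was 0.135 in home cage caffeine mouse 17, 0.096 in home cage water mouse 6, 0.069 in home cage water mouse 20 and 0.048 in home cage caffeine mouse 2. Those libraries had the 4 most negative length slopes, -0.121, -0.058, -0.049 and -0.037. The lowest medians, -0.092 in home cage water mouse 8 and -0.072 in learning water mouse 38, came with slopes of 0.040 and 0.081. By group the mean slopes were -0.014 in home cage water, -0.043 in home cage caffeine, 0.034 in learning water and 0.024 in learning caffeine mice. The slopes used every gene whose mean log2 CPM was 1 or more, and the transcripts of the 77 have a median of 1316 bases where all genes tested have 2820.

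**Figure D4:**
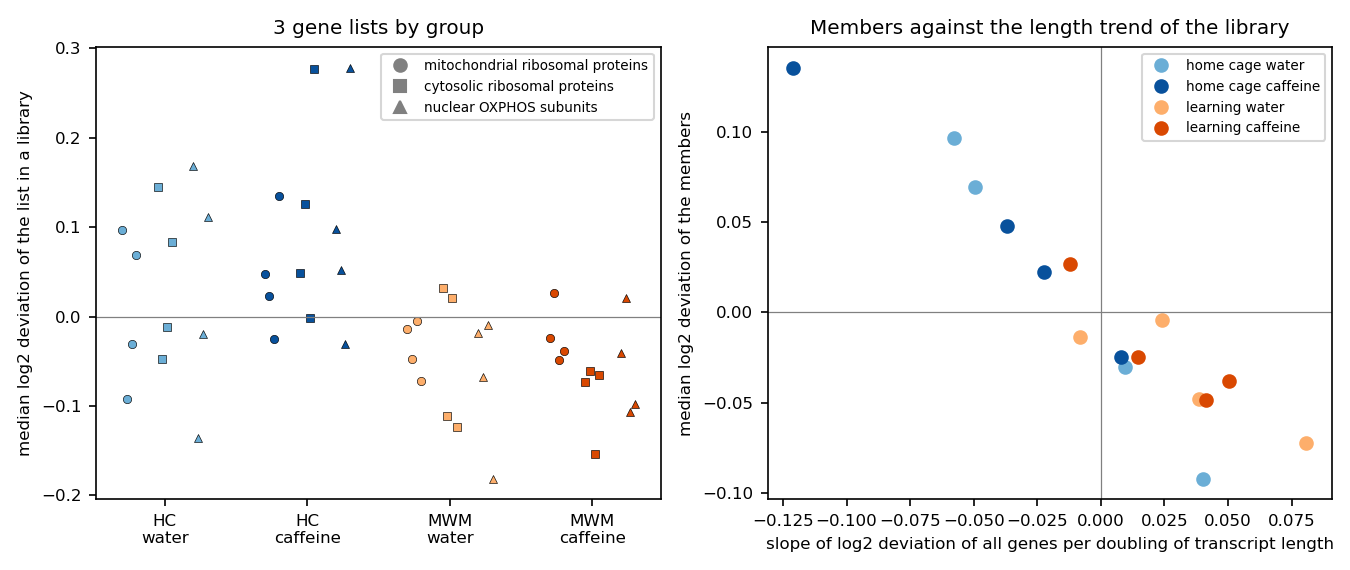
Left, the median log2 deviation in each library of the mitochondrial ribosomal protein genes, the cytosolic ribosomal protein genes and the nuclear OXPHOS (oxidative phosphorylation) subunits, by group, with HC for home cage and MWM for learning. Right, the median of the mitochondrial ribosomal protein genes in each library (y axis) against the slope of all genes' log2 deviations per doubling of transcript length (x axis); home cage caffeine mouse 17 is the point at the upper left, at -0.121 and 0.135.

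Among the 77, the most of the genes called had short transcripts. The 39 genes with transcripts of up to 1316 bases had a median learning change over both treatments of -0.106. Of these, 11 were called lower and 1 higher. The 38 longer ones had -0.029, with 2 called lower. Among all genes of any length 6.71% were called lower and 7.81% higher, and their shares by length class are not given. After the transcript length and GC content trends of each library were taken out, the median learning change of the 77 was -0.007 over both treatments, -0.013 under water and -0.009 under caffeine. Of the 13 genes called lower over both treatments, 1 was called in that fit, Mrpl58 at -0.15 ± 0.05 (adjusted p 0.0570 by edgeR). Mrps22 stood higher at 0.22 ± 0.04 (adjusted p 0.00195 by edgeR) and was then also called under water alone (0.24, adjusted p 0.0535) and under caffeine alone (0.21, adjusted p 0.0421). Mrps6, the counterpart of bacterial S6, was named after its values were seen: it was called higher at 0.27 ± 0.07 (adjusted p 0.0277 by edgeR) and shares 159 exon bases with Slc5a3 on its own strand. In the same fit 5.15% of all genes were called lower and 6.70% higher, against 1.30% and 2.60% of the 77. Over both treatments 53.2% of the 77 were below 0 in that fit, against 51.7% of all genes. The shares were 57.1% against 50.4% under water and 54.5% against 50.3% under caffeine.

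**Figure D5:**
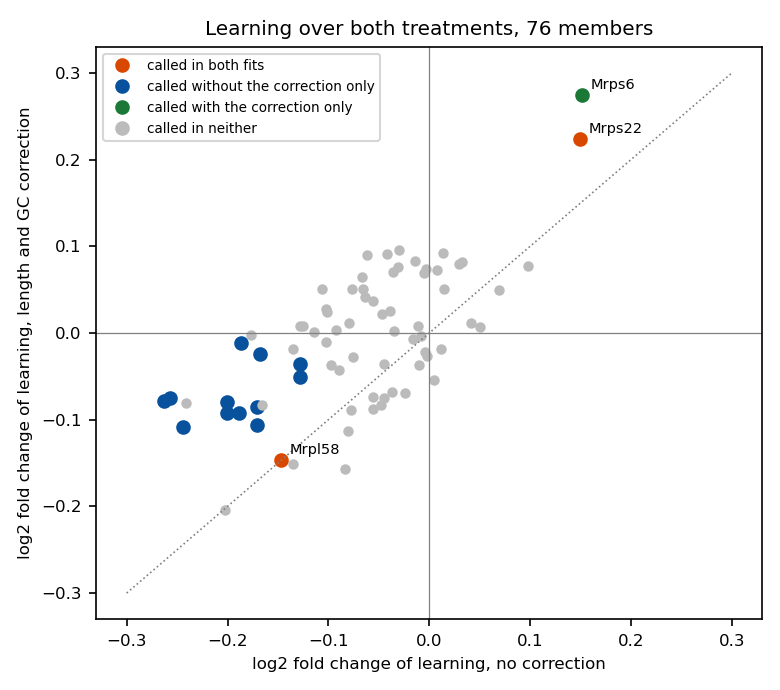
Log2 change from home cage to learning over both treatments for 76 genes, without (x axis) and with (y axis) the correction of each library for transcript length and GC content; the dotted line marks equal values. Mrps22 and Mrpl58 were called in both fits and Mrps6 with the correction only; the genes called lower without it only lie between -0.11 and -0.01 with it, and Mrps36 is outside the axes.

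Choroid plexus markers were lower after learning over both treatments, and few markers of the other cells were called. All 7 choroid plexus markers were called lower over both treatments, with a median of -1.26, and their summed level was 299 to 2330 CPM in home cage water, 187 to 496 in home cage caffeine, 158 to 425 in learning water and 111 to 198 in learning caffeine mice. The group means were 1170, 291, 298 and 157 CPM in that order, so that home cage caffeine mice were about as low as learning water mice. Of the astrocyte markers 1 of 6 (Gfap), of the endothelium markers 1 of 5 (Cldn5) and of the hippocampal neuron markers 1 of 8 (Wfs1) were called, all lower, and 0 of 7 for oligodendrocytes and 0 of 5 for the neighbouring thalamus. In this comparison 6.71% of all genes were called lower and 7.81% higher. Summed oligodendrocyte markers were 5208 to 7454 CPM in home cage water, 5284 to 8975 in home cage caffeine, 5128 to 11956 in learning water and 4989 to 6987 in learning caffeine mice. The 11956 CPM was that of learning water mouse 24. None of the markers of these cell types was at 0 in any library. The part of these cells in the changes of the mitochondrial ribosomal protein genes was not tested.

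Few of the genes that act with the mitochondrial ribosome were called after learning. The calls are to be read against the 6.71% of all genes called lower and 7.81% called higher, and say nothing particular about these short lists. All are from the fit without the length and GC correction, and values with it, or without mouse 17, are not given for these genes. Of 5 ribosomal proteins of other names, 1 was called lower over both treatments, Chchd1 of the small subunit (-0.15 ± 0.05). Of 12 translation factors, the elongation factor gene Guf1 was called lower (-0.14 ± 0.05) and the release factor gene Mtrf1l higher (0.21 ± 0.07). Of 25 assembly and RNA modification factors, Ngrn (-0.14 ± 0.05) and Rbfa (-0.13 ± 0.05) were called lower, and both act on the maturing ribosome. Of 19 tRNA synthetases, Pars2, which charges the mitochondrial proline tRNA, was called lower (-0.23 ± 0.07), and Nars2, its counterpart for asparagine, was called higher under caffeine alone (0.21 ± 0.06). Of 12 regulators of mitochondrial biogenesis, Gabpa (0.16 ± 0.05), the DNA-binding subunit of GABP, and Pprc1 (0.26 ± 0.07), a coactivator of the PGC-1 family, were called higher.

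The products of the mitochondrial ribosome are read from mitochondrial DNA. The table held 9 of these mRNAs, of which 7 were tested and 3, mt-Nd1, mt-Nd2 and mt-Nd5 of complex I, were called lower over both treatments, with a median over the 7 of -0.134. After the correction 0 of the 7 were called by edgeR, with a median of -0.088. The RNAs of the ribosome itself, mt-Rnr1 and mt-Rnr2, were not called, with log2 changes of -0.05 ± 0.24 and -0.08 ± 0.28. Being without long poly(A) tails, they are captured poorly by poly(A) selection, so that their level of 5.73 to 20.3 CPM for mt-Rnr1 is no measure of ribosome number. Of the 83 cytosolic ribosomal protein genes 30 were called lower and 1 higher (median -0.138), and of the 84 nuclear oxidative phosphorylation subunits 26 lower and 1 higher (median -0.133). Both lists have shorter transcripts than the mitochondrial ribosomal proteins, with medians of 878 and 824 bases, and after the correction 7 cytosolic ribosomal protein genes were called lower and 1 higher (median -0.025), and 4 oxidative phosphorylation subunits lower and 2 higher (median -0.013).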

How the data were processed

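RNA-Seq was measured in 16 dorsal hippocampus libraries, 1 per mouse. The authors made stranded poly(A) libraries (TruSeq), sequenced single 50-base reads, aligned them to mm10 and counted unique reads per Ensembl gene with HTSeq 0.6.1p1 in union mode, and the deposited values are these raw counts, not normalised. Multi-mapping reads were dropped, which lowers genes with near-identical copies. The strand setting is not given in the sources used here.

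Symbols and positions came from GENCODE M21 (GRCm38), and 81 of 35328 rows had no annotation. Library totals were 23078094 to 49949281, and no 2 libraries of a group agreed within sampling noise (chi-square per degree of freedom 5.26 to 30.4 over 24 pairs). With TMM scaling and edgeR's filter, 17830 genes were fitted in 1 model of the 4 groups over all 16 libraries with the quasi-likelihood test of edgeR 4.0.16 (R 4.3.3), and 7 comparisons were tested. A gene was called at a Benjamini-Hochberg adjusted p under 0.1 over all genes tested. The steps were tested on simulated data. Levels used the longest principal transcript. The length and GC correction used spline offsets (5 degrees of freedom) fitted per library. Alternatives were DESeq2 1.42.0, other filters, a stricter threshold, the 8 libraries of a comparison alone, genes with no shared exon, and leaving out each library.

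The genes and lists were chosen with earlier results of these data known. Those named were, by rule, those called (at most 12 a comparison, by p), the 2 of smallest p in each comparison of 2 groups and in the difference, the 3 highest and 3 lowest in level, and those of set roles. Mrpl13, Mrps5, Mrps6, Mrps16 and Mrps25 were named after their values were seen. The promoter windows were RefSeq's for GRCm38.p6, with no window matched for 9 of the 78 genes. The microglia marker list is not reported here.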

Additional observations from a re-analysis of the deposited data

Results flagged for a closer look

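In 8 of 120 groups of 4 mice, 1 library stood far from the other 3, its gap to the nearest filling more of the group's range than Dixon's 95% critical value, where chance gives about 1 in 20. Home cage caffeine mouse 17 was high for Mrpl41 (44.5 CPM, the others 36.7 to 37.4) and Mrpl45 (38.1 CPM, the others 34.4 to 34.8). Home cage caffeine mouse 14 was low for Mrps18b (8.03 CPM, the others 9.68 to 9.96). Home cage water mouse 6 was high for Mrpl55 (25.9 CPM, the others 23.0 to 23.5), and home cage water mouse 8 low for Mrps36 (0.478 CPM, the others 0.913 to 0.992). Learning water mouse 24 was high for Mrpl43 (30.2 CPM, the others 27.1 to 27.2). Learning caffeine mouse 40 was low for Mrpl46 (17.4 CPM, the others 18.4 to 18.5) and Mrps10 (15.7 CPM, the others 17.9 to 18.3).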

How the results depend on the processing

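Caffeine comparisons and the difference between learning responses gave 0 calls under every alternative run. Learning under water, with 0 calls, gave 1 with the length and GC correction and 0 to 2 with 1 library left out (2 without home cage water mouse 8). Learning under caffeine, with 2, gave 4 by DESeq2, 1 with the correction (median -0.0090), and 0 with genes of at least 1 count, at an adjusted p under 0.05 or from its 8 libraries alone. With 1 library left out it gave 0 (home cage caffeine mice 2, 9 and 17, learning water 33, learning caffeine 30 and 40), 1 (home cage water 6 and 11, learning water 36, learning caffeine 22) and up to 6 (home cage caffeine 14). Learning over both treatments, with 14, gave 6 with genes of at least 1 count, 5 at an adjusted p under 0.05, 3 with the correction (median -0.007), 9 among 47 genes with no shared exon, and 4 to 18 with 1 library left out: 4, 6 and 5 without home cage water mice 6, 11 and 20, 9 and 6 without home cage caffeine 2 and 17, 7 without learning water 33 or 38 and learning caffeine 30 or 40, and 8 without learning caffeine 22. The median change lay between -0.073 and -0.038 with 1 library left out, and between -0.077 and -0.026 under water and -0.099 and -0.044 under caffeine alone. The median difference between the learning responses changed sign, from -0.011 to 0.0070 with the correction and to between -0.052 and 0.0089 with 1 library left out. The caffeine medians stayed above 0 with 1 library left out (0.0081 to 0.051 at rest, 0.0099 to 0.038 after learning, 0.0087 to 0.037 over both). Genes that were not called, such as Mrps18a and Mrpl44, changed sign with the correction, and none of the 14 called over both treatments did. Causes were not tested. No paired analysis was possible because no mouse number occurs in more than 1 group. Mrpl53 and Mrps36 had too few reads for small changes to be seen.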
